A study of Gallus gallus with 8 samples.

Results

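The genes described here are 8 genes of the oligodendrocyte and of the myelin sheath, MBP, MAG, MOG, SOX10, OLIG2, CNP, CLDN11 and NKX2-2, measured in the retina of the chick. They were found as every probe set whose platform annotation carries one of these symbols alone. No measured value entered that search for probe sets, but the genes themselves were chosen with earlier results of these data known. Of the 8 genes, 6 had a probe set, and their 10 probe sets stand among 38439 that were tested, of which 27168 carry a single gene symbol. MBP had 3 probe sets, CLDN11 and SOX10 had 2 each, and CNP, MOG and OLIG2 had 1 each. MAG, an adhesion protein of the inner myelin membrane, and NKX2-2, a homeodomain factor of oligodendrocyte progenitors, had no probe set with their symbol and are not analysed here.

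Retinal RNA of 8 White Leghorn chicks was hybridized to 8 Affymetrix GeneChip Chicken Genome arrays. The positive lens-treated group was 4 chicks fitted at an age of 9 days with lenses of +6.9 D over both eyes for 24 h, which places the image in front of the retina, and the control group was 4 chicks without lenses, which are also labelled 9 days old. Both retinas of a chick were pooled into 1 sample, so that each array holds 1 chick and neither eye serves as a control of the other. The authors normalized the probe set intensities with GC-RMA, a method that removes a background predicted from each probe's GC content, makes the arrays comparable and joins a set's probes into 1 value, and the log2 of that value is used throughout.

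Myelin is the insulating membrane that oligodendrocytes wrap around axons of the central nervous system. In most mammals the axons of ganglion cells stay unmyelinated until they have left the eye. In birds oligodendrocytes also lie in the retina, where they myelinate part of the nerve fiber layer, and a chick retina therefore holds transcripts of this lineage. In RNA of a whole retina, fewer cells of a type and less RNA per cell cannot be told apart.

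After normalization the arrays were alike in brightness, with medians from 10.8 to 11 and a share of 53.4% to 53.8% of probe sets under an intensity of 16 (4 on the log2 scale), which is taken here as the limit of a dim signal. Because GC-RMA makes the arrays comparable, this likeness is no check of the hybridizations. All chicks are labelled male, but HINTW, a gene of the W chromosome that only hens carry, had log2 intensities of 13.68 to 14.14 in 6 arrays, of 5.39 in control replicate 2 and of 4.35 in control replicate 4. The 4 lens-treated arrays shared a fluidics station and were scanned first, while the 4 control arrays used another, and these steps cannot be told apart from the lenses. The log2 intensity of the actin control at the 3' end exceeded that at the 5' end by 1.75 to 2.01 with lenses and by 1.67 to 1.77 in controls. Whether this bears on the genes described here was not tested. Control replicates 2 and 4 stand apart by their W-linked signal, and control replicate 4 also by the genes described below, so the results that rest on them are given with and without them.

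Of the listed genes with a probe set, all but MOG gave a signal above the dim limit. The leading probe sets (of each gene, that with the highest mean log2 intensity over all arrays) of MBP, CNP, CLDN11, SOX10 and OLIG2 lay at an intensity of 16 or more in all 8 arrays. UGT8, the enzyme that makes the galactolipids of myelin, lay between 8.02 and 9.05. MOG lay below 16 in every array. MYRF, a transcription factor of myelination, had no probe set with its symbol. In all, 7 of 11 listed markers of oligodendrocytes had a probe set, of which 6 were measured at a mean log2 of 4 or more.

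Among the structural genes of myelin, MBP encodes myelin basic protein, which holds the inner faces of the compact membrane together. Its leading probe set (chromosome 2) had log2 intensities of 12.12, 12.36, 12.45 and 12.31 in lens-treated replicates 1 to 4 and of 12.47, 12.03, 11.48 and 12.9 in control replicates 1 to 4. The 4 lens-treated values lay close together and inside the range of the controls, whose replicate 3 was the lowest and replicate 4 the highest of all arrays. The means were 12.31 ± 0.14 (SD, n = 4) with lenses and 12.22 ± 0.61 (SD, n = 4) without, a log2 fold change of 0.09 with a standard error of 0.30 (limma, Benjamini-Hochberg adjusted p = 0.996; exact two-sided permutation test, p = 0.8). Between the lowest and the highest chick MBP differed 2.69-fold.

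The other probe sets of MBP did not share this pattern equally. The third set read 10.22, 10.57, 10.62 and 10.38 with lenses and 10.66, 10.31, 9.86 and 10.96 in controls, and it followed the leading set across the 8 arrays (r = 0.98, Spearman's rho = 0.98, exact permutation test over pairings, p = 0.000124, and 0.00062 after Benjamini-Hochberg adjustment over 5 pairs of probe sets of a gene). The second set read 10.49, 10.60, 10.98 and 10.71 with lenses and 10.63, 10.81, 10.43 and 10.53 in controls. It followed neither, with an r of 0.27 with the leading set and of 0.30 with the third, and control replicate 4 ranked 6 of 8 there. The high MBP of control replicate 4 is thus seen at 2 of 3 probe sets. The suffix of the third set (s_at) marks probes that may also match transcripts of other genes. The log2 fold changes of both other sets, 0.10 with a standard error of 0.12 at the second and 0.00 with a standard error of 0.24 at the third, did not pass either (limma, Benjamini-Hochberg adjusted p = 0.989 and 1.0).

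CNP encodes the cyclic nucleotide phosphodiesterase of the noncompact, cytoplasm-filled parts of myelin. Its probe set (chromosome 27) read 6.85, 7.34, 7.10 and 7.12 with lenses and 7.12, 6.77, 6.61 and 8.17 in controls. Control replicates 3 and 4 were again the lowest and the highest array, 2.94-fold apart, and the other 6 chicks lay between 6.77 and 7.34. The means were 7.10 ± 0.20 (SD, n = 4) and 7.17 ± 0.70 (SD, n = 4), a log2 fold change of −0.06 with a standard error of 0.34 (limma, Benjamini-Hochberg adjusted p = 0.998; exact two-sided permutation test, p = 0.971). The control SD was 0.26 without replicate 4.

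CLDN11 encodes claudin-11, which forms the tight junctions between the turns of the central myelin sheath. At its leading probe set (chromosome 9) the lens-treated chicks read 5.83, 6.32, 6.62 and 6.18 and the controls 5.43, 5.90, 5.72 and 7.13. The highest control lay above every lens-treated chick, while the other 3 controls lay below 3 of the 4 lens-treated chicks. The means were 6.24 ± 0.33 (SD, n = 4) and 6.04 ± 0.75 (SD, n = 4), a log2 fold change of 0.19 with a standard error of 0.39 (limma, Benjamini-Hochberg adjusted p = 0.996; exact two-sided permutation test, p = 0.686). Without control replicate 4 the log2 fold change was 0.56 with an unadjusted p of 0.0407 from limma, just under 1.5-fold, and without control replicates 2 and 4 it was 0.66 with an unadjusted p of 0.0442, past 1.5-fold. These were the only settings tried in limma in which a probe set of these genes came under an unadjusted p of 0.05, and neither brought the adjusted p under 0.06. The second probe set ranged from 3.22 to 4.77, was at or above 16 in 5 arrays, and had a log2 fold change of 0.06 with a standard error of 0.38.

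MOG, in mammals a glycoprotein of the outermost lamella of central myelin, gave no signal above the dim limit. Its only probe set (chromosome 2) lay between 2.60 and 2.64 in all 8 arrays. Such values do not tell whether the transcript is absent from the retina or not caught by these probes, and its fold change (−0.01, log2) and correlations carry no measurement of MOG.

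Of the transcription factors, SOX10 switches on myelin genes in oligodendrocytes and also acts in Schwann cells. Its leading probe set (chromosome 1) read 4.85, 5.28, 4.39 and 4.87 with lenses and 4.31, 4.99, 4.74 and 5.66 in controls, near the dim limit throughout. The suffix of this set (s_at) marks probes that may also match transcripts of other genes. Control replicate 4 was the highest array and control replicate 1 the lowest, and the groups overlapped widely. The means were 4.85 ± 0.36 (SD, n = 4) and 4.92 ± 0.57 (SD, n = 4), a log2 fold change of −0.08 with a standard error of 0.32 (limma, Benjamini-Hochberg adjusted p = 0.996; exact two-sided permutation test, p = 0.829). The second probe set stayed below 16 in every array, between 2.99 and 3.23, and had the smallest adjusted p of the 10 probe sets, at 0.979, with a log2 fold change of −0.09 and a standard error of 0.04.

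OLIG2, the factor that sets up the oligodendrocyte lineage and that is also present in progenitors of the developing retina, varied least of the 5 genes with a signal. Its probe set (chromosome 1) read 7.97, 8.39, 8.20 and 8.53 with lenses and 8.33, 8.26, 8.32 and 8.58 in controls. Control replicate 4 was again the highest array, but by little, and the lowest was lens-treated replicate 1, which lies 1.53-fold below it. The means were 8.27 ± 0.24 (SD, n = 4) and 8.37 ± 0.14 (SD, n = 4), a log2 fold change of −0.10 with a standard error of 0.13 (limma, Benjamini-Hochberg adjusted p = 0.99; exact two-sided permutation test, p = 0.543).

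**Figure D1:**
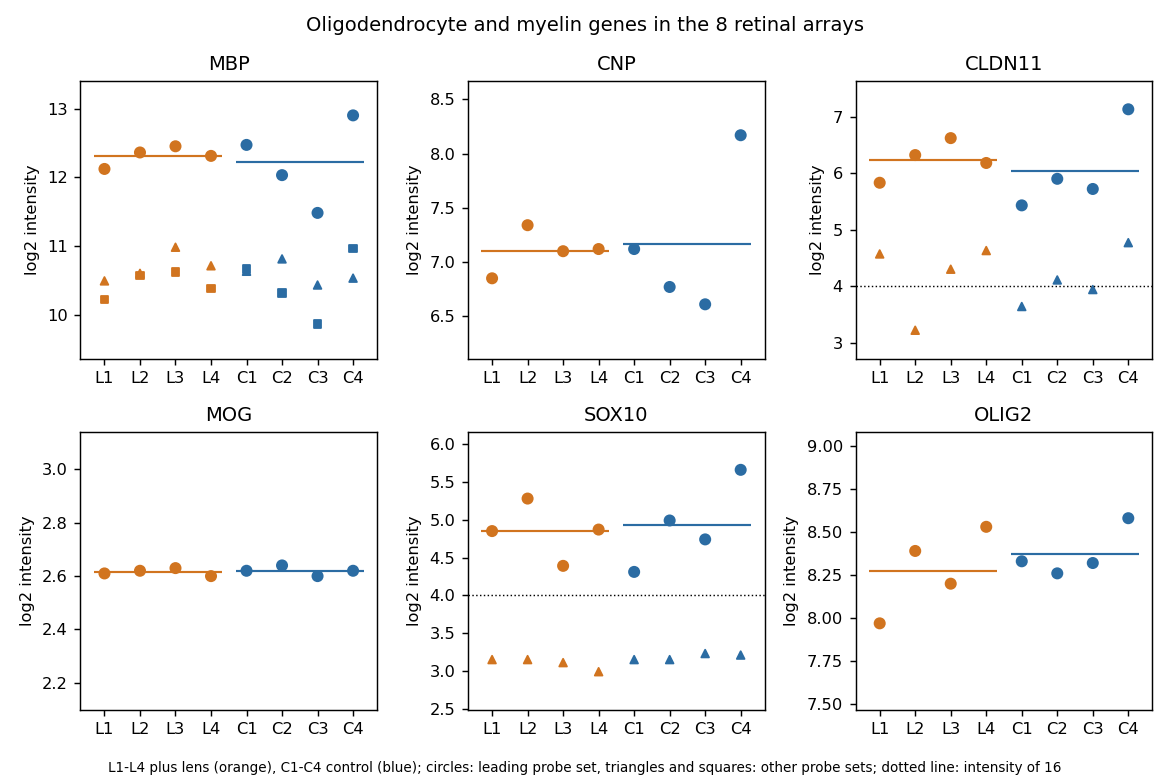
Log2 intensity (vertical axis, a scale of its own in each panel) of the 6 genes with a probe set in the 8 arrays (horizontal axis, L1 to L4 lens-treated in orange and C1 to C4 control in blue); circles are the leading probe set, triangles and squares other probe sets, horizontal lines the group means of the leading set and the dotted line an intensity of 16. Control replicate 4 is the highest circle for MBP, CNP, CLDN11, SOX10 and OLIG2, control replicate 3 the lowest for MBP and CNP, and MOG stays between 2.60 and 2.64.

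No difference between positive lens-treated and control chicks was detected in these genes. Calls required 1.5-fold and an adjusted p under 0.06 in limma, whose estimate of the spread of 1 probe set draws on all of them. Of the 10 probe sets 0 were called, as were 0 of all 38439 (0.0%). At an unadjusted p under 0.05 from the same limma fit, 0 of 10 passed, against 4.53% of all probe sets, and 0 of 10 were also 1.5-fold different, against 0.421% of all. By the unpaired test of the methods 0 were called too, and 0 of 10 came under 0.05 unadjusted. The lens-treated and control values overlapped at all 10 probe sets, while 2.86% of all probe sets had groups that did not overlap. The log2 fold change was above 0 at 5 probe sets and below 0 at 5, and at 8 of the 10 leaving out 1 chick turned its sign in at least 1 case. Without control replicate 4 it was 0.27 for CNP and 0.17 for SOX10, without control replicate 3 it was −0.15 for MBP, and without lens-treated replicate 1 it was 0.02 for CNP and 0.0025 for OLIG2. Of all the refitted values for these genes, 0 came under an adjusted p of 0.06 in limma.

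How large a difference could have gone unseen depended on the gene. For 5 of the 10 probe sets the 95% confidence interval of the log2 fold change lay within 1.5-fold in both directions. These were OLIG2 (−0.42 to 0.22), the second and the third set of MBP (−0.20 to 0.39 and −0.57 to 0.57), and MOG and the second set of SOX10, which are dim and therefore say little. For the other 5 the interval passed 1.5-fold in both directions. It ran from −0.62 to 0.80 for the leading set of MBP, from −0.88 to 0.76 for CNP, from −0.73 to 1.12 for the leading set of CLDN11 and from −0.83 to 0.68 for that of SOX10. A change of 1.5-fold in either direction was therefore not excluded at these sets with 4 chicks per group.

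**Figure D2:**
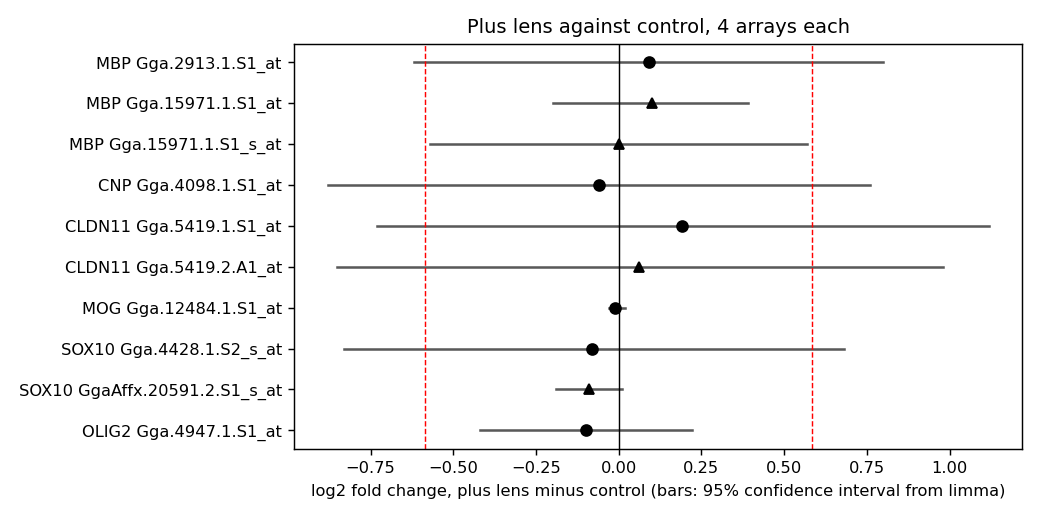
Log2 fold change, lens-treated minus control (horizontal axis), with its 95% confidence interval from limma for each of the 10 probe sets (vertical axis; circles leading sets, triangles other sets, each with its identifier on the array); red dashed lines mark 1.5-fold. All intervals hold 0, 5 lie inside the red lines and 5 cross both.

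At their leading probe sets CLDN11, CNP, SOX10 and MBP differed more among the chicks than most probe sets did. Over 17859 probe sets with a mean log2 of 4 or more, the median SD over the 8 arrays was 0.18. The SD of CLDN11 exceeded that of 96.1% of them, the SD of CNP that of 94.0%, that of SOX10 92.4% and that of MBP 91.0%, while OLIG2 stood near the middle with 54.9%. The second set of MBP had an SD of 0.18, at the median. These shares are over probe sets of all intensities from that limit up and were not matched for intensity. Without control replicate 4, a setting chosen after the values were seen, these shares were 90.4% for CLDN11, 71.6% for CNP, 85.1% for SOX10, 86.3% for MBP and 49.2% for OLIG2. In 4 of the 5 genes, all but OLIG2, the controls were more variable than the lens-treated chicks. Without control replicate 4 the order turned for CLDN11 (control SD 0.24, lens-treated 0.33) and for SOX10 (0.35 and 0.36).

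Control replicate 4 accounted for part of this spread. It was the highest array at the leading probe set of all 5 genes with a signal and at 7 of the 8 probe sets of these genes with a mean log2 of 4 or more, against 10.3% of all such probe sets. It was highest with control replicate 3 lowest at 3 of the 8, the leading and the third set of MBP and that of CNP, against 1.51% of all. This pattern was chosen after the values were seen and is a description. Compared with control replicate 3, control replicate 4 held 2.69 times the MBP intensity, 2.94 times that of CNP, 2.64 times that of CLDN11, 1.9 times that of SOX10 and 1.2 times that of OLIG2. Without it the control SD was 0.50 for MBP, 0.24 for CLDN11, 0.35 for SOX10 and 0.04 for OLIG2. Control replicate 4 is 1 of the 2 arrays without W-linked signal. In control replicate 2, the other, the mean deviation of the 5 genes from the mean of the 8 arrays was −0.16 (log2). In lens-treated replicates 1 to 4 it was −0.23, 0.19, 0.00 and 0.05. A relation of the myelin genes to W-linked signal was not tested.

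Whether the genes varied together between chicks was examined with the correlation of leading probe sets over the 8 arrays, 15 pairs in all. MBP and CNP went together most closely (r = 0.88, exact permutation test over pairings, p = 0.00754; rho = 0.81, p = 0.0218), and this pair missed an adjusted p of 0.05 over the 15 pairs (0.113 for r and 0.276 for rho). Their r was 0.81 without the arrays farthest from the median of MBP, control replicates 3 and 4, 0.89 within the groups (deviations from the group means), 0.87 without control replicate 4 and 0.88 without control replicates 2 and 4. Leaving out any 1 chick left it between 0.87 and 0.94. With the mean of all probe sets of a gene in place of the leading set it was 0.79 (exact permutation p = 0.0315, adjusted 0.391).

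CNP and CLDN11 followed (r = 0.80, exact permutation test over pairings, p = 0.0191, adjusted 0.143; rho = 0.62, p = 0.115, adjusted 0.431). This relation was weaker without the arrays at the ends, with an r of 0.38 without control replicates 3 and 4 and 0.47 without control replicate 4 alone. The same held for MBP and CLDN11 (r = 0.65, exact permutation p = 0.0829; 0.21 without both arrays), for CNP and SOX10 (r = 0.64, exact permutation p = 0.0873; 0.06 without both) and for CLDN11 and SOX10 (r = 0.63, exact permutation p = 0.0919; −0.25 without control replicates 1 and 4). Leaving out end arrays narrows the range, which can lower r by itself. How far these relations rest on the end arrays was not tested. Within the lens-treated chicks r was 0.62 for CNP and CLDN11 and 0.99 for MBP and CLDN11. It was 0.47 there for CNP and SOX10 and −0.39 for CLDN11 and SOX10. OLIG2 correlated with CNP at 0.64 (exact permutation p = 0.102; 0.40 without control replicate 4). MBP and SOX10, the sheath protein and the factor known to drive it, showed an r of 0.33 (exact permutation p = 0.432), which turned to −0.21 without control replicate 4 and to −0.53 without control replicates 3 and 4.

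All 10 pairs of the 5 genes with a signal were positive over the 8 arrays, with r between 0.33 and 0.88 and a median of 0.63. Without control replicate 4 the median was 0.19, the range ran from −0.21 to 0.87 and 9 pairs were positive. With MOG included the median of all 15 pairs was 0.46, and 0.15 without control replicate 4. No pair passed an adjusted p of 0.05 in the exact permutation test, and 2 of 15 came under 0.05 unadjusted. When control replicate 1 was left out, 3 pairs passed, MBP and CNP among them (r = 0.90, adjusted p = 0.0377 by the exact permutation test), and 1 pair passed without lens-treated replicate 3. With the mean of all probe sets of a gene over the 8 arrays, the median of the 10 pairs was 0.47, with r between 0.16 and 0.79.

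**Figure D3:**
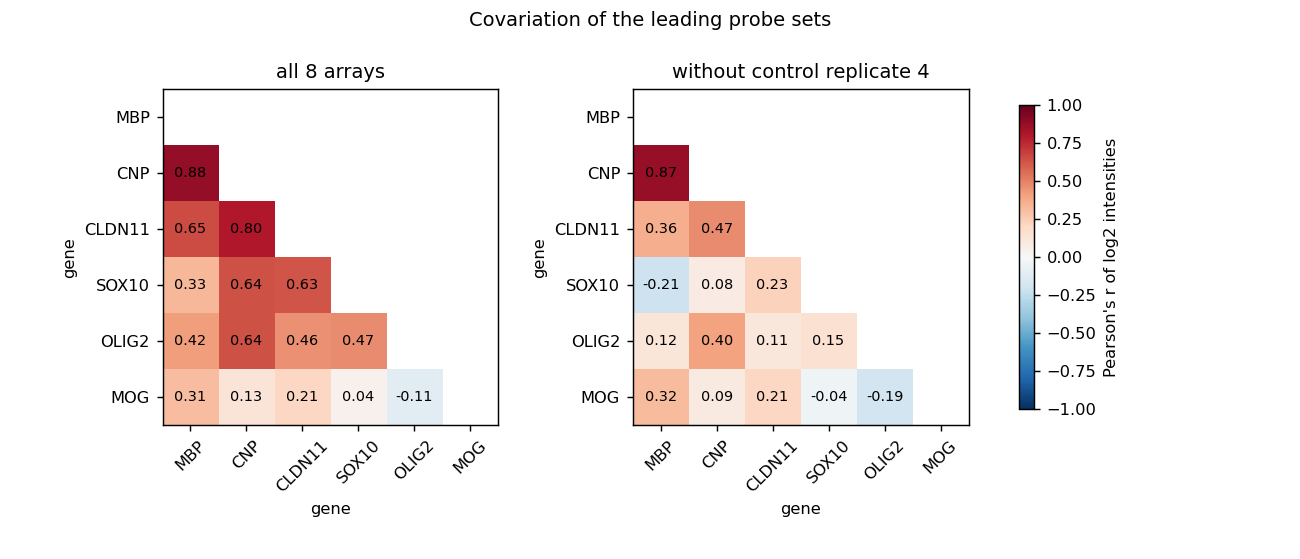
Pearson's r of log2 intensities between the leading probe sets of the 6 genes (both axes list genes; each square is 1 pair), over all 8 arrays on the left and without control replicate 4 on the right. MBP and CNP stay at 0.88 and 0.87, while most other pairs move toward 0 and MBP with SOX10 turns from 0.33 to −0.21.

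The wider program of oligodendrocytes and myelin was followed with a list of 75 further genes, of which 57 had a probe set. At their leading probe set 37 genes had a mean log2 of 4 or more and 20 lay below. None was called by limma (0 of 57, smallest adjusted p = 0.964 with Benjamini-Hochberg adjustment). At an unadjusted p under 0.05, 6 of 57 (10.5%) passed, 4 higher and 2 lower in lens-treated chicks, against 4.53% of all probe sets, and 0 of these were 1.5-fold different at the leading set. Of the 37 genes with a signal 19 were higher and 18 lower, with a median log2 fold change of 0.00, and of 0.01 over all probe sets with a mean log2 of 4 or more.

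The 6 genes with the smallest p came from different steps of the lineage. ASPA, aspartoacylase, which supplies acetate for myelin lipids, read 9.19, 9.33, 9.07 and 9.05 with lenses and 9.47, 9.30, 9.54 and 9.56 in controls, so that the groups overlapped by 1 chick on each side. Its log2 fold change was −0.31 with a standard error of 0.08 (limma, Benjamini-Hochberg adjusted p = 0.964). CNTN1, contactin-1, an adhesion molecule of axons and oligodendrocytes, read 9.32, 9.29, 9.15 and 9.55 with lenses and 9.05, 9.00, 8.85 and 9.09 in controls. The groups did not overlap, and the log2 fold change was 0.33 with a standard error of 0.09 (adjusted p = 0.964, limma).

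TPPP, a tubulin-binding protein of oligodendrocytes, also had lens-treated values above all controls, at both of its probe sets. The leading set read 12.57, 12.38, 12.35 and 12.49 against 12.30, 12.24, 12.15 and 12.29, a log2 fold change of 0.20 with a standard error of 0.06 (adjusted p = 0.964, limma). At the other set TPPP differed by 0.25 with a standard error of 0.05 (adjusted p = 0.83, limma). These differences were small, under 1.5-fold, and did not pass.

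ID2, an inhibitor of the helix-loop-helix factors that promote oligodendrocyte differentiation, read 10.95, 10.60, 11.04 and 10.84 with lenses and 10.37, 10.42, 10.24 and 10.71 in controls at its leading probe set. Only the highest control reached into the lens-treated values. The log2 fold change was 0.42 with a standard error of 0.13 there and 1.35 with a standard error of 0.47 at a second, dimmer set, where the unadjusted p was 0.0262 in limma, past both limits, and the groups also overlapped (adjusted p = 0.979 at both, limma). Its other 2 probe sets lay below 16. PDGFA, the growth factor of oligodendrocyte progenitors, differed by 0.12 with a standard error of 0.05 at its leading set (adjusted p = 0.979, limma) and by −0.10 at its other set. CSPG4, the NG2 proteoglycan of those progenitors, lay below 16 (log2 fold change −0.20, standard error 0.08, adjusted p = 0.979, limma).

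Most genes of the wider list did not follow MBP closely across the chicks. The share that did was larger than among all probe sets with a signal. The shares were not matched for spread over the arrays, and the list was chosen with earlier results of these data known. Of the 37 with a signal, 3 had an r of at least 0.8 with the leading set of MBP, against 0.633% of 17851 probe sets with a mean log2 of 4 or more, and 1 of the other 4 genes with a signal, CNP, did so. The 3 were CRYAB (r = 0.89), a small heat shock protein abundant in oligodendrocytes, BCAS1 (r = 0.84), a marker of oligodendrocytes that begin to myelinate, and UGT8 (r = 0.81). Without control replicate 4 alone they had an r of 0.82, 0.73 and 0.70, and without control replicates 3 and 4 of 0.70, 0.73 and 0.65. Correlations of genes outside the 8 with MBP are given as descriptions over 8 arrays.

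CRYAB read 6.34, 6.69, 6.66 and 6.68 with lenses and 7.12, 6.58, 6.16 and 7.61 in controls, and UGT8 read 8.02, 8.73, 8.94 and 8.37 with lenses and 8.41, 8.35, 8.03 and 9.05 in controls. Control replicate 4 was the highest array for both, as for MBP. PLLP, plasmolipin of the myelin membrane, stood at 6.29 in control replicate 4 and between 4.40 and 4.81 in the other 7 arrays. Its r of 0.74 with MBP was 0.85 without control replicate 4 alone and 0.32 without control replicates 3 and 4. TSPAN2, a tetraspanin of oligodendrocytes, had an r of 0.78. It was 0.66 without control replicate 4 alone and turned to −0.55 without control replicates 3 and 4. MOBP, another basic protein of central myelin, did not share the pattern: control replicate 4 was its lowest array, at 6.75 against 7.05 to 7.42 in the others, and its r with MBP was −0.48. Others of the list were lowest there too, such as GJC3 (7.12, r = −0.64 with MBP) and PADI2 (5.85, r = −0.20). The median r with MBP over the 37 genes was 0.20, and 23 of them were higher in control replicate 4 than in control replicate 3. The share of all probe sets that were higher there was not computed, so this count is a description only.

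Over all other genes, those most like MBP were sought among 2126 probe sets with a single symbol, a mean log2 of 4 or more and a range of at least 1. FECH, the ferrochelatase of heme synthesis, came first (r = 0.95), from 5.18 in control replicate 3 to 7.52 in control replicate 4, followed by LOC427439 (0.94), the tubulin TUBB6 (0.93), the uridine phosphorylase UPP1 (0.89) and CRYAB (0.89). APOH (0.87), SYNPO2L, INF2, USP12-like and MFN1 (0.86 each) completed the 10. Without control replicate 4 alone the r of these 10 genes with MBP lay between 0.77 for SYNPO2L and 0.94 for TUBB6. Without control replicates 3 and 4 it lay between −0.16 for SYNPO2L and 0.76 for USP12-like. Genes most like the mean deviation of MBP, CNP, CLDN11, SOX10 and OLIG2 were CCLL4, a chemokine (r = 0.93), PLLP (0.91), the transcription factor KLF15 (0.89), MTAP (0.88), NSFL1C, RGR, ZNF767 and LOC427439 (0.87 each), and TNFRSF1A and LOC100858152 (0.86 each). FECH, LOC427439 and MTAP lie on the Z chromosome by the RefSeq annotation of GRCg7b. In control replicate 2, which like control replicate 4 lacked W-linked signal, they stood at 6.58, 6.51 and 6.03, and in control replicate 4 at 7.52, 7.10 and 6.70. In the arrays with W-linked signal they ranged from 5.18 to 7.11, from 5.97 to 6.64 and from 5.60 to 6.05. A relation of these genes to W-linked signal was not tested. Of these genes CRYAB and PLLP are also on the wider list.

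Markers of other cell types were set beside the pattern of control replicates 3 and 4. Over the 6 oligodendrocyte markers with a signal the mean deviation from the average of 8 arrays was −0.39 in control replicate 3 and 0.71 in control replicate 4, but 5 of the 6 are the genes whose values singled out these arrays, and UGT8 alone is separate (8.03 and 9.05). Markers of Mueller glia, the radial glia of the retina (7 of 7 measured, all with a signal), deviated by −0.06 and 0.03, and the log2 of their summed intensity was 15.26 to 15.60 with lenses and 15.37 to 15.55 in controls. Markers of ganglion cells and their axons (9 of 11 measured, 8 with a signal, GAP43 below 16) deviated by 0.06 and −0.05, with a summed level of 14.54 to 14.90 and 14.56 to 14.81. The mean deviation of this list was thus neither highest in control replicate 4 nor lowest in control replicate 3. Its genes differed: THY1 was highest in control replicate 4 (9.72), while RBPMS was lowest there (7.33). The part of axons in the level of the myelin genes was not tested.

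Astrocyte markers (4 of 5 measured, 3 with a signal, PAX2 below 16) deviated by −0.20 and 0.01 in these arrays, with a summed level of 7.81 to 8.39 with lenses and 7.74 to 7.92 in controls. Markers of microglia and leukocytes (8 of 10 measured, 3 with a signal) deviated by −0.07 and −0.23, with 8.67 to 9.40 and 8.74 to 9.38. For vessels and the pecten (7 of 7 measured, 3 with a signal, CDH5, TEK, CLDN5 and ESAM below 16) the deviations were 0.04 and −0.33, with 13.34 to 13.65 and 13.40 to 13.45. None of these 3 lists was higher in control replicate 4 than in every other array. Of 6 markers of Schwann cells, the myelinating cells of peripheral nerves, PMP22 alone had a probe set, at −0.57 and 0.09, with a level of 5.07 to 5.22 with lenses and 4.63 to 6.06 in controls.

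Pigment cell markers moved in part with control replicate 4. All 8 were measured, 4 had a signal, and their mean deviation was 0.52 in that array and −0.19 in control replicate 3, and it was 0.49 in control replicate 2 and 0.35 in control replicate 1. The mean deviation of the 5 myelin genes was −0.16 and −0.22 in those arrays, although MBP of control replicate 1 (12.47) was second only to control replicate 4. RPE65, the retinoid isomerase of the pigment epithelium, was highest in control replicate 4, at 10.48 against 8.19 to 9.60 in the others, with 8.69 in control replicate 3 and an r of 0.58 with MBP. TTR, transthyretin, was also highest there, at 5.60, with 4.62 in control replicate 3 and an r of 0.46. DCT and MITF, the rest of those with a signal, did not peak there. DCT stood at 4.92 in control replicate 4, below 5.74 and 6.22 in control replicates 1 and 2, with an r of 0.01. MITF stood at 7.18 in control replicate 4 and at 7.51 in control replicate 3, with an r of −0.14. Of the 4, 1 was higher and 3 were lower with lenses, DCT by −1.69 (log2, limma, Benjamini-Hochberg adjusted p = 0.964). RGR, a retinal opsin of pigment epithelium and Mueller glia that is not on the marker list, stood at 8.66 in control replicate 4 and at 6.39 in control replicate 3, its highest and lowest array. It was named above for its likeness to the mean of the myelin genes, so these values are no separate evidence about the pattern. The summed level of the pigment cell markers was 9.09 to 9.75 with lenses and 9.37 to 10.72 in controls. The pigment genes TYR, TYRP1, PMEL and MLANA had a mean below 16. Photoreceptor markers (5 of 6 measured, all with a signal) deviated by 0.29 in control replicate 4 and by 0.12 in control replicate 3, with a summed level of 14.59 to 14.85 against 15.01 to 15.15. In that sum GNAT2, the cone transducin, had a log2 fold change of −1.31 (limma, Benjamini-Hochberg adjusted p = 0.412). PDE6C, ARR3 and GUCA1A had −0.07, −0.11 and −0.18, while GNAT1, near the dim limit, went the other way at 0.40 with a standard error of 0.33. By the authors' real-time PCR GNAT2 did not differ significantly. Erythrocyte markers (3 of 7 measured) had none with a signal, at a summed level of 4.11 to 5.55 with lenses and 4.20 to 4.21 in controls. The part of pigment cells, photoreceptors and W-linked signal in the level of the myelin genes was not tested. The mean deviation of a list correlated with MBP over the 8 arrays at 0.83 for oligodendrocytes, 0.58 for PMP22, 0.35 for pigment cells, 0.32 for astrocytes, 0.29 for Mueller glia, 0.20 for photoreceptors, −0.01 for microglia, −0.29 for ganglion cells and −0.44 for vessels. The oligodendrocyte list holds MBP itself and 4 more of the myelin genes described above.

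**Figure D4:**
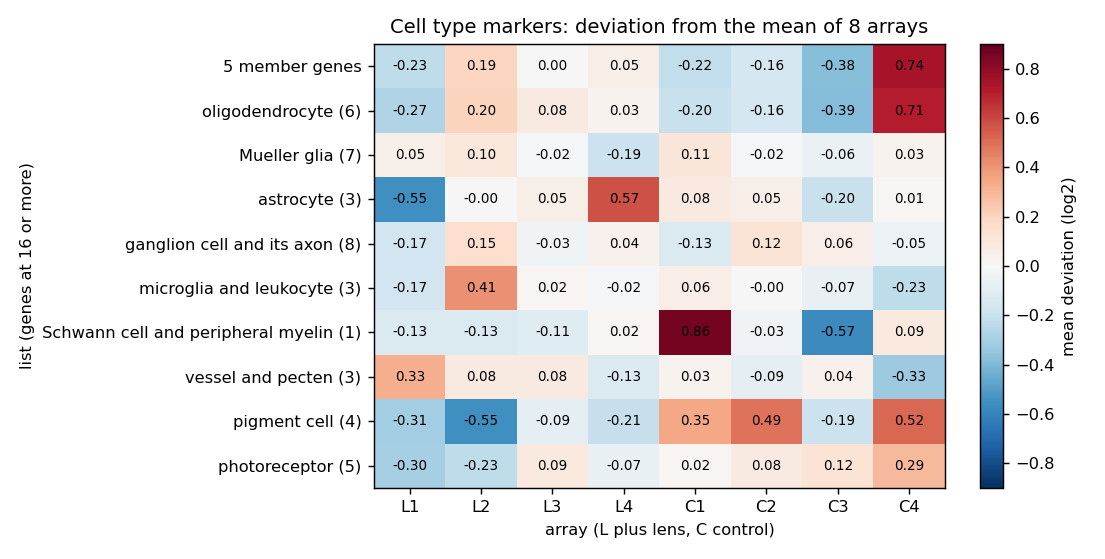
Mean deviation (log2, colour and number) of each list of cell type markers from its average over the 8 arrays (columns, L1 to L4 lens-treated and C1 to C4 control), with the number of genes with a signal in brackets; the top row is the mean of MBP, CNP, CLDN11, SOX10 and OLIG2. The myelin genes stand at 0.74 in control replicate 4 and −0.38 in control replicate 3, Mueller glia at 0.03 and −0.06 and ganglion cells at −0.05 and 0.06.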

How the data were processed

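The authors scanned the arrays with Microarray Suite 5.0 and normalized them with GC-RMA (no source used here names its version) in ArrayAssist 4.0. Each deposited value is the linear intensity of 1 probe set in 1 array. The deposited experiment records gave fluidics station and scan order.

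The log2 of the deposited intensity was used with no further scaling. The table has 38535 probe sets, and its 96 Affymetrix controls were dropped. Symbols came from the platform annotation and chromosomes from the RefSeq annotation of GRCg7b. Groups were compared with limma 3.58.1 (lmFit, eBayes) in R 4.3.3, with Benjamini-Hochberg adjustment over all 38439 probe sets and no block. Single values carry an exact permutation test over 70 relabelings and correlations one over all pairings, all two-sided. The number of arrays limits the precision. Replicates are separate chicks.

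The members and lists were chosen with earlier results of these data known. Named are every member, the 10 genes most like MBP and most like the mean of the members, and the 6 genes of the wider list with the smallest p. Genes of the wider list with a high or low r with MBP, or with control replicate 4 lowest, were named after their values were seen. The alternatives were the methods' t-test, trend and robust eBayes, array weights, quantile normalization, median centring, a floor or filter at an intensity of 16, a pseudocount of 16, a replicate block, and arrays left out. For correlations they included the mean of all probe sets of a gene, ranks and deviations from the group means.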

Additional observations from a re-analysis of the deposited data

Results flagged for a closer look

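Of 78 groups of 4 arrays, 4 held an array that stood far from the other 3 by Dixon's ratio of the gap to the range. Chance alone gives about 5% of groups. The groups were lens-treated and control chicks at the myelin genes, the genes most like them and genes named from the wider list. GJC3, PADI2 and the markers of other cell types were not among them. In the lens-treated group, CRYAB stood at 6.34 (log2) in replicate 1 and between 6.66 and 6.69 in the others (ratio 0.90). In the control group replicate 4 stood apart at 3 genes. PLLP was 6.29 there and 4.40 to 4.66 in the others (ratio 0.86). NSFL1C was 8.08 there and 5.58 to 5.92 in the others (ratio 0.86). LOC100858152 was 5.11 there and 4.16 to 4.27 in the others (ratio 0.88). These 3 genes were named for their likeness to the mean of the myelin genes, which is highest in that array, so that their distance is no separate evidence about it. None of the 6 myelin genes with a probe set held such an array in either group.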

How the results depend on the processing

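Of 300 alternatives, 263 were scored as unchanged. For a single fold change or correlation this meant the same direction and side of the threshold. Counts and medians were scored by closeness, not by sign. The median log2 fold change of the probe sets of these genes, −0.0031 at first, was 0.21 without control replicates 2 and 4 and was still scored as unchanged. Of the fold changes of single probe sets, 26 were scored as changing sign. None of 186 recomputed fold changes came under an adjusted p of 0.06 (smallest 0.721, limma). With array weights the log2 fold change of MBP was −0.16 at the leading set and −0.18 at the third, and that of CLDN11 −0.01 and −0.20; with median centring the third set of MBP gave −0.01. Without control replicates 2 and 4, and with a term for these arrays, MOG gave 0.0041, CNP 0.24 and SOX10 0.33, and without them 1 probe set, the leading set of CLDN11, came under the unadjusted p at 1.5-fold. Leaving out each array in turn, the log2 fold change ran from −0.15 to 0.32 for MBP (−0.19 to 0.17 at the third set), from −0.25 to 0.27 for CNP (highest without control replicate 4), from −0.01 to 0.56 and from −0.09 to 0.38 for CLDN11, from −0.01 to 0.00045 for MOG, from −0.28 to 0.17 for SOX10 and from −0.18 to 0.0025 for OLIG2. The median r of the 15 pairs ran from 0.15, without control replicate 4, to 0.52, and the pairs past the threshold from 0 to 3. Without control replicates 3 and 4, a setting chosen after seeing the data, the median was 0.14. The causes were not tested. Deviations from the group means correlated by −0.01 to 0.11 between arrays of the same replicate number. Unlike numbers were not compared, so these values do not settle whether the numbers pair the chicks. The replicate number was also the module number on the fluidics station in both groups. With the replicate block 0 probe sets of these genes were called or listed. A floor at 16 left no value for MOG and the second set of SOX10.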
